A study of Mus musculus with 3 samples.

Results

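The zinc finger cluster on chromosome 6 of the mouse was examined as 7 genes, Zfp212, Zfp282, Zfp398, Zfp746, Zfp777, Zfp783 and Zfp786, and as the 1100 kb around them (chromosome 6, 47.5 to 48.6 Mb, mm10), in which every peak with its summit inside was taken. That gave 24 of the 2881 peaks of the Foxc2 list (0.833%, exact Clopper-Pearson 95% interval 0.534 to 1.24%) and 6 of the 5213 peaks of the Foxc1 list (0.115%, exact interval 0.0422 to 0.25%). The peaks came from chromatin immunoprecipitation and sequencing (ChIP-seq) of glomeruli, the filtering units of the kidney, taken with magnetic beads from C57BL/6 mice aged 8 weeks. The Foxc2 library was made with antibody AF6989 and the Foxc1 library with antibody D8A6, and an input DNA library of the same material was not analysed here. There was 1 library per antibody, no genotype or treatment differed between them, the labels do not say how many mice were pooled, and glomeruli hold podocytes, mesangial cells and endothelium together, so no peak can be assigned to a cell type. Peak lists hold no RNA, and the tissue could not be checked against marker levels. The genes and the region were chosen from these same lists, so the counts and folds below describe them and carry no test.

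Zinc finger proteins of this kind bind DNA through repeated finger units that each grip a few bases. Many proteins of the wider family carry a KRAB domain that can recruit the corepressor TRIM28 and silence the bound sequence. Whether products of the genes studied here act in this way was not examined. Genes of the family tend to lie in clusters that arose by duplication. Foxc1 and Foxc2 are closely related forkhead transcription factors with nearly the same DNA-binding domain, known for their roles in vessel, eye and kidney development and in podocytes, and forkhead factors as a family bind sequences related to GTAAACA.

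Most of the region's Foxc2 peaks stood in 2 dense stretches over and beside predicted genes. The peak with the highest fold of either antibody stood at the start of Zfp212. The dense stretches held 21 of the 24 Foxc2 peaks and 1 of the 6 Foxc1 peaks. The 3 remaining Foxc2 peaks lay at Zfp282, Zfp212 and Repin1. The 5 remaining Foxc1 peaks lay at Zfp282, at Zfp212, within Zfp777, within Zfp746 and 5.39 kb beyond an end of Atp6v0e2, a subunit gene of the vacuolar proton pump. Peaks of the antibodies overlapped at 2 places, Zfp212 and Zfp282. In the region as a whole 2 of 24 Foxc2 peaks (8.33%, exact interval 1.03 to 27%) and 2 of 6 Foxc1 peaks (33.3%, exact interval 4.33 to 77.7%) were overlapped by at least 1 bp. In the rest of the lists the shares were 14.9% for Foxc2 (425 of 2857) and 8.20% for Foxc1 (427 of 5207). The Foxc2 share of the region joined 0 of 21 peaks in the dense stretches with 2 of 3 outside them. These shares are therefore described only and were not compared. The bounds cut through no dense part. The nearest Foxc2 summits outside were 45.6 kb before the region, at the start of Cul1 (fold 3.13), and 2870 kb after it (4.30), and the nearest Foxc1 summits were 7793 kb before (4.27) and 27.3 kb after it (5.54).

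**Figure D1:**
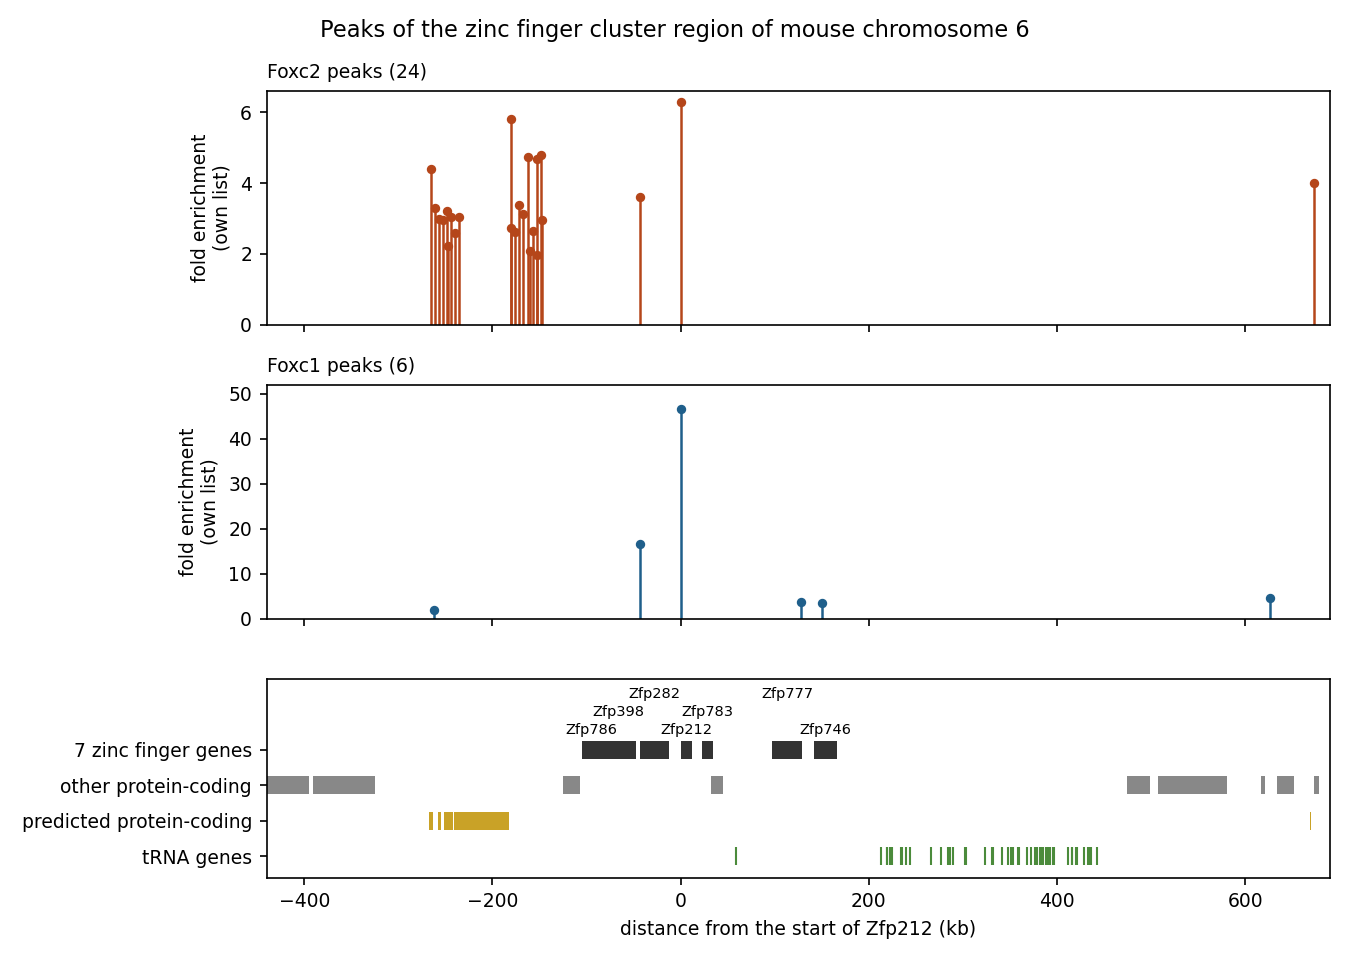
Fold enrichment of each peak (vertical axis, as the authors' peak caller gave it, on each list's own scale) against distance in kb from the start of Zfp212, with Foxc2 above Foxc1 and annotated genes in the lowest panel. The 21 crowded Foxc2 peaks lie over and beside predicted genes. The peak of highest fold of the region in either list stands at Zfp212 (folds 6.30 and 46.5), and the tRNA genes have no peak.

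Zfp212 carried the peak with the highest fold of the region in both lists. The gene (chromosome 6, 47920568 to 47932639, + strand) encodes a zinc finger protein. The Foxc2 peak (47920419 to 47920839) had a fold enrichment of 6.30 over the local background, place 188 of 2881 by fold. Its minus log10 q was 17.0, place 165. Some Foxc2 peaks of the dense stretches had a higher minus log10 q, up to 43.9. The Foxc1 peak (47920261 to 47921006) had a fold of 46.5, place 4 of 5213, and a minus log10 q of 434, place 2. Both summits fell just inside the gene, 50 bp (Foxc2) and 48 bp (Foxc1) downstream of the start, 2 bp from each other. The peaks of both antibodies thus covered the start and the first bases of the transcript.

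The fold and the p-value of each peak also fix the number of DNA fragments piled up on its summit and the background level it was set against, because the peak caller derives both from these numbers with a Poisson formula. Whole-number pileups matched the deposited p-values of all 2881 Foxc2 and all 5213 Foxc1 peaks, to within 0.001 of the minus log10 p. At Zfp212 the Foxc2 pileup was 41 fragments (exact Poisson 95% interval 29.4 to 55.6) over a background of 5.67, and the Foxc1 pileup 337 fragments (exact interval 302 to 375) over a background of 6.26. These backgrounds were near the level that served most peaks, the genome-wide value of 4.82 fragments in the Foxc2 list and 5.32 in the Foxc1 list, and stood at 1.18 times that value in both. Intervals cover counting error only.

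Zfp282 carried the other shared place, with a low peak of Foxc2 and a high one of Foxc1. Its human counterpart is known as HUB1, a repressor first found through a viral promoter element. The Foxc2 peak (47877494 to 47877848) had a fold of 3.60, place 2135 of 2881, with a pileup of 35 fragments over a background of 9.0. The Foxc1 peak (47877396 to 47877994) had a fold of 16.6, place 176 of 5213, with 165 fragments over 9.0. The summits stood 135 bp (Foxc2) and 130 bp (Foxc1) downstream of the annotated start at 47877555, 5 bp from each other. At both genes the Foxc1 peak therefore ranked higher within its list than the Foxc2 peak within its own. Folds of different lists share no scale and are not compared in height.

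The bases in front of these starts are shown because the peaks of both antibodies cover them. Each window runs from 250 bases before the start to 50 after it (RefSeq, GRCm38.p6, the assembly of mm10, + strand), 5′ to 3′, with capitals for the bases that lie under both peaks. The Zfp212 window is chr6:47920318-47920617, with 199 such bases, and the Zfp282 window is chr6:47877305-47877604, with 111.
Zfp212: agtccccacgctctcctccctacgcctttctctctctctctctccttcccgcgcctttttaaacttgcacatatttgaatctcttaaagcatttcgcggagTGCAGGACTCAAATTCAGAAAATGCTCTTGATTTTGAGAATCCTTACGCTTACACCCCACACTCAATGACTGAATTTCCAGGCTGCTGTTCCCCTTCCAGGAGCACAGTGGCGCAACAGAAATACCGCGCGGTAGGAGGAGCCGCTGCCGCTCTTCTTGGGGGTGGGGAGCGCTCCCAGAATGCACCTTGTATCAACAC
Zfp282: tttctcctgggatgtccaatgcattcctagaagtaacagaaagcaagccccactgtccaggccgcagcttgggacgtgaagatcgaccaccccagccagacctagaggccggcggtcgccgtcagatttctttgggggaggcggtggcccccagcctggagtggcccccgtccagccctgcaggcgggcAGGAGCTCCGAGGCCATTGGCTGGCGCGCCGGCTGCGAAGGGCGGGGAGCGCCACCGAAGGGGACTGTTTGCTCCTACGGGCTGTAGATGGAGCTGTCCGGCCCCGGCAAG
Neither window held the forkhead letters GTAAACA on either strand, and neither held the shorter form TAAACA. The parts of the peaks outside the windows, with both summits at Zfp282, were not searched. At Zfp212 the summits stand at the downstream edge of the window. A forkhead word elsewhere under these peaks would therefore have been missed. Of all 32851 promoter windows in the table, 3.65% held the longer word and 13.4% held the shorter one, which is part of the longer. The variant GCAAACA, searched after the Zfp282 window was read, stood there once, as TGTTTGC on the strand shown, 4 bases after the start and under both peaks, and 5.07% of all windows held it. It lay upstream of both summits. The windows differed in composition, with a GC content of 52% and 14 CpG in Zfp212 and of 66.3% and 21 CpG in Zfp282. The windows of the other 5 genes, with a GC content of 63 to 82.3%, held none of the 3 words.

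**Figure D2:**
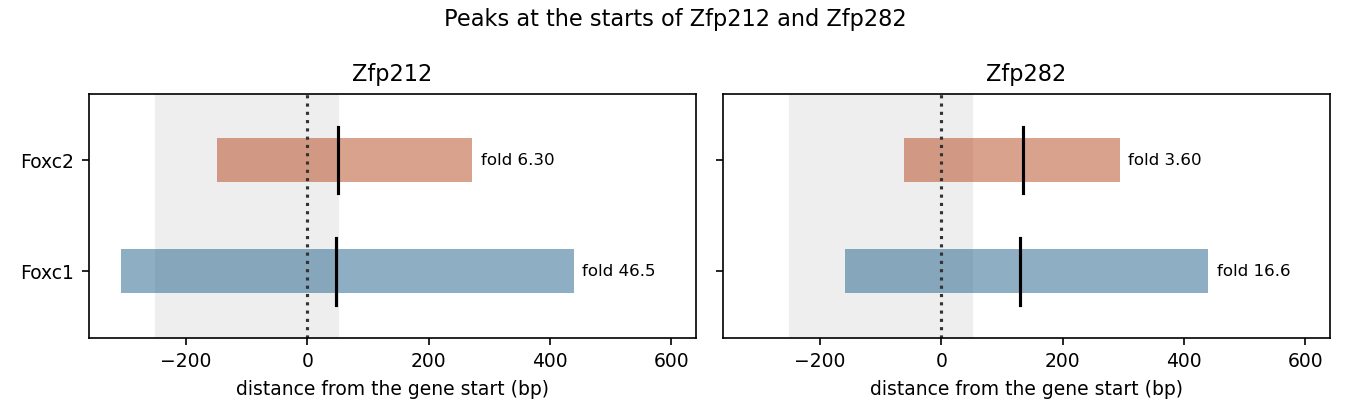
Extent of the Foxc2 peak (upper bar) and the Foxc1 peak (lower bar) at Zfp212 and at Zfp282 in bp from the gene start (dotted line), with black ticks for summits and grey for the printed window. The summits of the antibodies stand 2 and 5 bp apart, and the Foxc1 peaks are wider than the Foxc2 peaks at both genes.

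The other members had Foxc1 peaks alone or no peak of their own. Zfp777 (48017660 to 48050004, - strand) had a Foxc1 peak of fold 3.80 (48048495 to 48048733, 23 fragments over 5.32) inside its span, 0.879 kb upstream of the start that the promoter table gives at 48047794. Zfp746 (48062391 to 48086986, - strand) encodes the protein also called PARIS, a repressor of the gene for PGC-1alpha that is removed through the ubiquitin ligase parkin. Its Foxc1 peak (48070959 to 48071238) had a fold of 3.64, with 22 fragments over 5.32, and lay inside the gene, 15.5 kb downstream of the start. Both folds were among the lower ones of the Foxc1 list, at places 4378 and 4613 of 5213. The nearest Foxc2 summit was 127 kb from the start of Zfp777 and 166 kb from that of Zfp746. Zfp398 (47835633 to 47873542, + strand), whose human counterpart ZER6 is known to interact with the estrogen receptor, had no summit of either antibody in its span, and the closest were those at Zfp282, 42 kb from its start. Zfp786 (47815536 to 47836197, - strand) likewise had none in its span, with the closest to its start again at Zfp282, 47.2 kb away. Zfp783 (47943175 to 47954549, + strand), annotated as a noncoding RNA gene in the table used here, had its closest summits at Zfp212, 22.6 kb away.

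Counted over the members, 2 of 7 had a Foxc2 summit within 1 kb of the start, against 8.36% of all 17492 protein-coding genes with a listed start. For Foxc1 it was 3 of 7, against 2.7%, and for both antibodies at 1 start 2 of 7, against 0.909%. Inside their spans 2 of 7 had a Foxc2 summit and 4 of 7 a Foxc1 summit, against 7.58% and 9.53% of 21887 protein-coding genes. Within 50 kb of the span these counts were 5 and 7 of 7, against 23.2% and 29.3%, but neighbours shared summits, and the 7 genes rested on the same few peaks. The members were picked for peaks in these lists, so their counts were not tested against the background.

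Zinc finger genes elsewhere in the genome had no start with peaks of both antibodies, a count too small to set them apart from other genes. Among 325 protein-coding genes outside the region with symbols starting Zfp, 20 had a Foxc2 summit within 1 kb of the start (6.15%, exact 95% interval 3.8 to 9.34%), against 8.36% of all 17473 protein-coding genes outside the region. A Foxc1 summit stood at 10 of the 325 (3.08%, exact interval 1.49 to 5.59%), against 2.68% of all. Both antibodies together stood at 0 of the 325, which allows a share of up to 1.13% by the exact interval, against 157 of the 17473 (0.899%). The genes nearest to Zfp212 in pattern were of other families. The set compared held none of the 325 Zfp genes elsewhere, so this outcome was largely fixed in advance. By the distance between percentile ranks of fold in both lists, among the other 158 protein-coding genes with both antibodies at the start, the nearest were Peli2 (Foxc2 fold 6.71, Foxc1 fold 22.9), Tspan4 (8.29 and 29.5), Arnt2 (9.46 and 20.3), Smo (16.0 and 29.0) and Sbf2 (6.71 and 10.8). Zfp282 stood at place 79 of these 158, since its Foxc2 fold lay at percentile 25.9 of the list while its Foxc1 fold lay at percentile 96.6.

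Among the neighbours of the cluster with established names, Repin1 and Cul1 had a Foxc2 summit near an end, and none had a Foxc1 summit there. The 3 other zinc finger genes of the region were Zfp956, Zfp467 and Repin1. Repin1, which encodes a zinc finger protein named for binding at a replication origin, had a Foxc2 summit 97 bp outside its span (fold 4.0, 23 fragments over 5.0) and no Foxc1 summit within 1 kb. Zfp956, next to Zfp783, and Zfp467 had none. Of 8 further protein-coding genes with established names, among them Ezh2, the methyltransferase of Polycomb complexes, Pdia4 and Krba1, 1 had a Foxc2 summit within 1 kb of an end. That gene was Cul1, a scaffold of ubiquitin ligases, whose summit fell outside the region. None of the 8 had a Foxc1 summit there. Of 7 predicted protein-coding genes, Gm40364 alone had a Foxc2 summit within 1 kb of an end, and none had a Foxc1 summit there. The backgrounds for an end were 7.47% of protein-coding genes for Foxc2 and 2.93% for Foxc1.

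The region holds 49 tRNA genes, all with symbols that carry the cysteine anticodon gca, of which 48 lie in 1 block of 230 kb (48133937 to 48363603). None of the 49 had a summit of either antibody within 250 bp or within 1 kb, and the block held 0 summits of both. A count of 0 of 49 allows a share of up to 6.12% taken as 3 counts of the total, or 7.25% by the exact interval. Of 359 tRNA genes elsewhere, 12 had a Foxc2 summit within 250 bp (3.34%, exact interval 1.74 to 5.77%) and 5 a Foxc1 summit (1.39%, exact interval 0.454 to 3.22%), and the share over all 408 was 2.94% for Foxc2 and 1.23% for Foxc1. At these shares an absence among 49 genes was not detectable as a difference. The 2 genes of Y RNAs in the region, Rny1 and Rny3, had their nearest Foxc2 summits 15.1 and 8.62 kb away.

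The dense stretches lay between Ezh2 and Pdia4, over and beside predicted genes. The stretch nearer to Ezh2 spanned 31.6 kb (47654871 to 47686427) with 9 Foxc2 peaks and 1 Foxc1 peak. The stretch nearer to Pdia4 spanned 33.5 kb (47739602 to 47773139) with 12 Foxc2 peaks. The 54.6 kb between the last summit of one and the first of the other held no summit, and the predicted gene Gm40363 (47682344 to 47738326) covers most of that gap. Summits fell inside Gm40369, Gm40367, Gm40365, Gm36327, Gm40364 and Gm40363 in the stretch nearer to Ezh2 and inside the noncoding gene Gm52861 in the other. The other summits of both stretches fell in no annotated gene, and the second stretch runs on beyond Gm52862.

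Many of the Foxc2 summits in the dense stretches stood at a regular step, more so in the stretch nearer to Ezh2. Of the 20 gaps between neighbouring summits, counting the 54.6 kb gap, 10 measured between 4 and 5 kb (4191 to 4834 bp, median 4366.5 bp). Another 4 were under 1100 bp, and these limits were chosen after the gaps were seen. Gaps of 4 to 5 kb were 6 of 8 in the stretch nearer to Ezh2. In the stretch nearer to Pdia4 they were 4 of 11, and the gaps there ran from 556 to 4834 bp. The predicted genes repeated at the same step. The 300-base windows around the starts of Gm40369 (at its start of 47653992), Gm40367, Gm36327 and Gm40364 were identical in every base, and lay 8600, 12990 and 4325 bp apart, which is 4300, 4330 and 4325 bp per step if the gaps hold 2, 3 and 1 steps. The window of Gm52861, in the stretch nearer to Pdia4, matched them in 98.7% of aligned columns, with 4 of 301 differing, gaps at the ends or within included. From each of these 5 starts the next Foxc2 summit lay downstream by nearly the same distance, 1240 bp for Gm40369, 1211 bp for Gm40367, 1200 bp for Gm36327, 1208 bp for Gm40364 and 1257 bp for Gm52861. At these 5 starts the summits thus took nearly the same place relative to the repeated window.

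The repeated window is shown because a summit stood at nearly the same distance from each of its 5 listed copies (RefSeq, GRCm38.p6, + strand, 5′ to 3′). The Gm40367 window is chr6:47662342-47662641, and the Gm52861 window is chr6:47738587-47738886, where capitals mark bases that differ from Gm40367 or are inserted against it.
Gm40367: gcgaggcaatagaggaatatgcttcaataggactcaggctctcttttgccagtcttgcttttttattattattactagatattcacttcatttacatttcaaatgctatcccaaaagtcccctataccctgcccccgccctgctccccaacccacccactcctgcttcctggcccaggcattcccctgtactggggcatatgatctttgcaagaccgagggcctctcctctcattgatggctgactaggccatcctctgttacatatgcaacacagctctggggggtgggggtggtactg
Gm52861: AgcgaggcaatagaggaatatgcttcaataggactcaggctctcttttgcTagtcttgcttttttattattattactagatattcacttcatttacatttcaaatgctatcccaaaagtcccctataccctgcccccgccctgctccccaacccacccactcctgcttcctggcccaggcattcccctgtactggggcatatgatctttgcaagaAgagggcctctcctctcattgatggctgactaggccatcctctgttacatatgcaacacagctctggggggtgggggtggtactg
Neither holds any of the 3 forkhead words, and the summits lie more than 1 kb downstream of these windows, in sequence not analysed here. Outside the stretches, 9 promoter windows in the table share a run of 30 bases with the Gm40367 window.

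A gene for 4.5S RNA marks the start of the dense part. This small RNA of rodents is made by RNA polymerase III, and its genes are known to lie in long tandem arrays. The table lists 1 full gene, Rn4.5s (47654921 to 47655094), without a strand. It lies wholly under the Foxc2 peak that opens the stretch nearer to Ezh2 (47654871 to 47656223, fold 4.40). The summit stood 138 bp beyond the end of Rn4.5s at 47655094. The nearer end of the gene lay 929 bp from the Gm40369 start, so the gene sat between the repeated window and the summit. Further copies are not named in the table. The 4 pseudogenes of Rn4.5s on chromosomes 1, 9 and 13 had no summit of either antibody within 30 kb.

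By their medians, these peaks combined low folds with high significance, though single peaks varied widely in both. In the dense stretches the Foxc2 folds ran from 1.97 to 5.80 with a median of 3.04, against a median of 3.97 in the rest of the list, and 10 of the 21 were under 3. The median minus log10 q was 13.4 in the dense stretches (range 2.43 to 43.9) and 5.29 in the rest. Over the 24 peaks of the region, the median place in the list was percentile 8.09 by fold and percentile 90.4 by minus log10 q. Among peaks of fold 3 to 5 alone, the median minus log10 q was 27.9 for the 10 peaks of the dense stretches and 4.67 for 2202 other Foxc2 peaks. At a given fold the Poisson formula yields a higher value where the background is higher. This contrast therefore follows from the backgrounds given below and is no separate observation. The peaks were also broad, with a median width of 617 bp against 327 bp.

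The pileups and backgrounds behind these values were both far above the usual. Foxc2 pileups ran from 56 to 162 fragments with a median of 81, against a median of 24 in the rest of the list. The backgrounds ran from 19 to 56 fragments, which is 3.95 to 11.6 times the genome-wide 4.82. The summit with the highest fold (47740094, fold 5.80) had 115 fragments over 19, and the summit with the highest pileup (47753141, fold 3.13) had 162 over 51.0. The lowest fold, 1.97 at 47768497, came from 56 fragments over 28.0 and was place 2880 of 2881 in its list. The single Foxc1 peak there (47657998 to 47658347) had a fold of 1.94, the lowest of the whole Foxc1 list, from 63 fragments over a background of 32.0, which is 6.01 times the genome-wide 5.32. Its summit lay 3.03 kb after the previous Foxc2 summit and 1.17 kb before the next. Background was raised at every dense peak, in both lists. Its part in the peaks was not tested, how reads that match several copies were placed is not given in the sources used here, and Foxc1 fragments at the places of the Foxc2 summits are not listed.

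**Figure D3:**
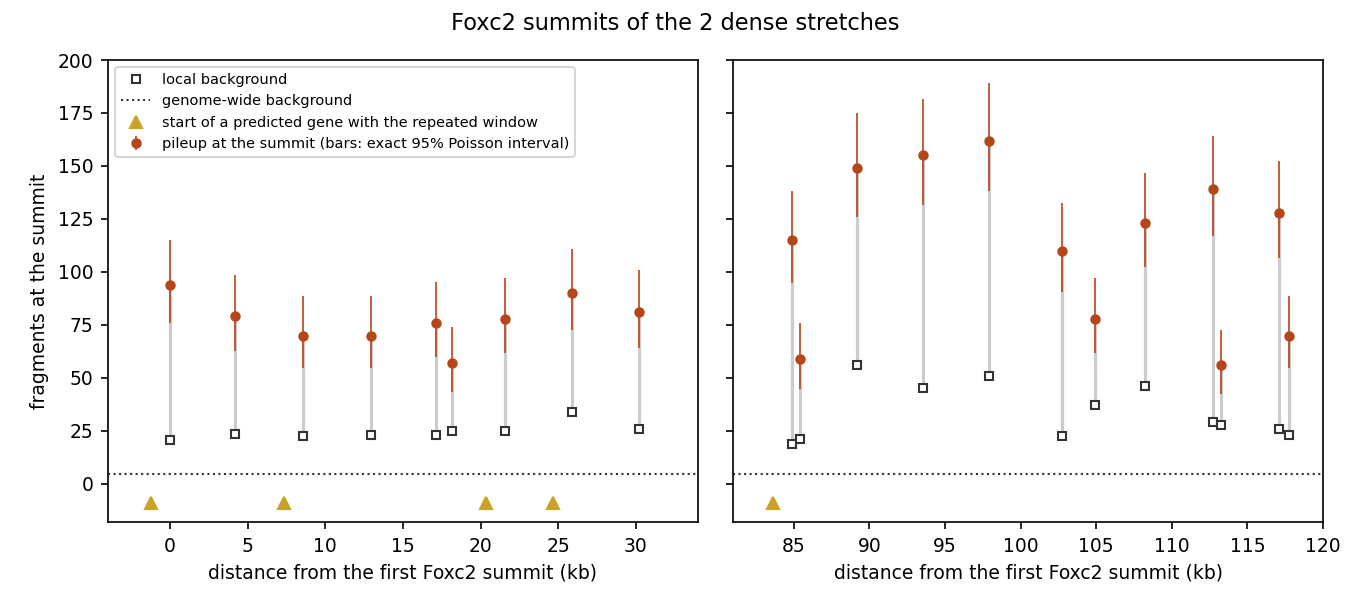
Fragments piled up at each Foxc2 summit of the dense stretches (filled points, with exact 95% Poisson intervals) and the local background there (open squares), against distance in kb from the first summit, with the stretch nearer to Ezh2 in the left panel and the one nearer to Pdia4 in the right. Triangles under the axis zero mark starts of genes with the repeated window, and every background, from 19 to 56 fragments, lies above the dotted genome-wide line at 4.82.

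Few other peaks of the lists had such a background. At 3 or more times the genome-wide value, a limit chosen after the values were seen, stood all 21 Foxc2 peaks of the dense stretches and 9 of the other 2860 (0.315%). In the Foxc1 list it was the 1 peak of the dense stretches and 7 of the other 5212 (0.134%). The peaks at the 7 zinc finger genes were not among them, with backgrounds of 5.67 to 9.0 fragments for Foxc2 and 5.32 to 9.0 for Foxc1. Of 2484 windows of 1100 kb laid along the other parts of chromosomes 1 to 19, X and Y, none held as many as 24 Foxc2 summits. The highest had 14, on chromosome 11 from 96800001, with its strongest Foxc2 peak nearest to Lasp1, followed by 12 each near Dhx8 on chromosome 11 and Pard3 on chromosome 8, and 11 each near Misp on chromosome 10 and Foxd1 on chromosome 13. For Foxc1, 265 of the windows held as many summits as the 6 of the region. The region was chosen with these peaks known, so its place among the windows is a description only. Without the dense stretches the region held 3 Foxc2 and 5 Foxc1 summits, and 15.9% and 16.4% of windows held as many.

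**Figure D4:**
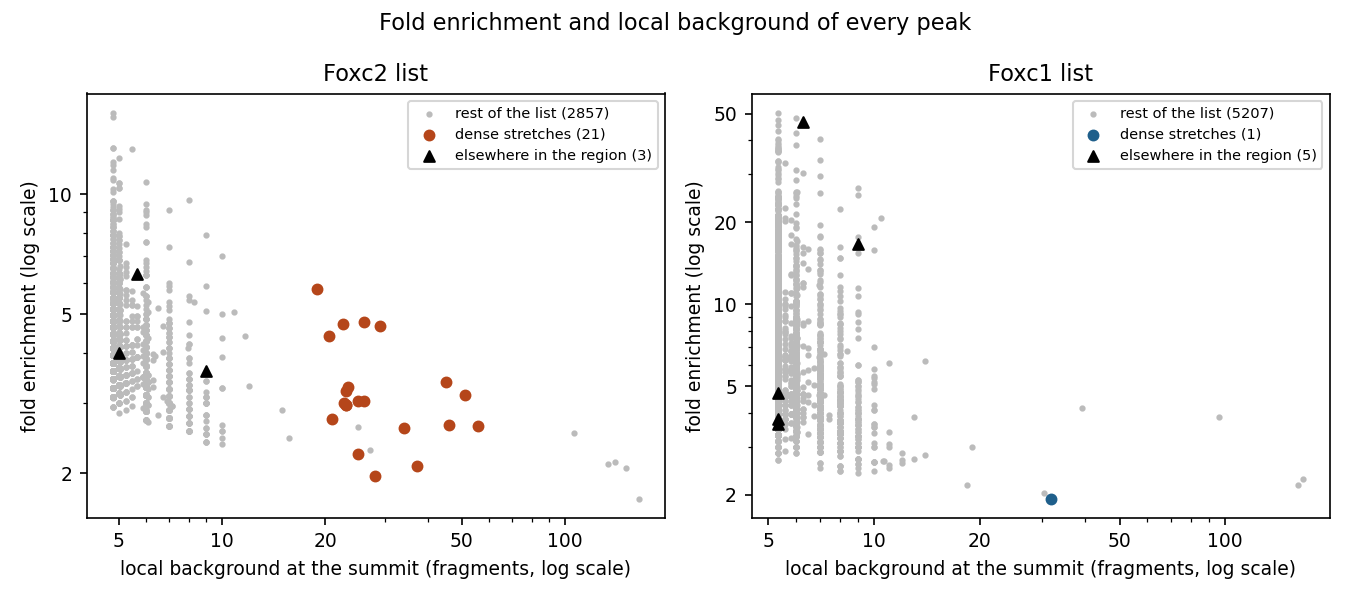
Fold enrichment against the local background at the summit, in fragments and with log scales on both axes, for every peak of the Foxc2 list (left) and the Foxc1 list (right). The 21 dense Foxc2 peaks lie at backgrounds of 19 to 56, where few other peaks of the list fall, while the triangles for the rest of the region lie at backgrounds of 9.0 or less.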

How the data were processed

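The submitters' processing notes name Bowtie2, MACS2 and the build mm10 for the Foxc2 and Foxc1 libraries. For versions, settings, the control, read filters and pooling, the sources used here give nothing. The authors' deposited lists give per peak a fold enrichment (a ratio to local background), a minus log10 p-value and q-value (−log10), a score equal to 10 times the minus log10 q, which was not used, and the summit offset. No read totals are listed, so the depth of the libraries is unknown.

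Gene spans and promoter windows came from RefSeq tables of GRCm38.p6. Gene starts were read from the promoter windows, and exons were not annotated in these tables. Overlap needed 1 bp, and summits within 10 kb were stitched. Pileup and background were solved from fold and p with MACS2's usual pseudocount of 1, an approach chosen after the values were seen; the next best whole number missed the p-value by at least 0.055. Python 3.11.15, pandas 2.3.3, scipy 1.17.1 and biopython 1.88 were used, and the pileup solution, overlaps, distances and clusters were tested on simulated data. The members, lists and naming rules were chosen with earlier results of these data known. Named were all members, neighbouring protein-coding genes with a summit within 1 kb of an end, genes of the dense stretches, the strongest peaks, the 5 genes most like Zfp212 and the 5 fullest windows; other neighbours are named for position. Alternatives covered peak thresholds, bounds, overlap, distances and stitching.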

Additional observations from a re-analysis of the deposited data

How the results depend on the processing

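Of 75 alternative values, 53 counted as unchanged, within 1.5 times of the value in the report or, for shares of zinc finger genes elsewhere, within its exact 95% interval. Restricted to folds of 5 or more, the region kept 2 Foxc2 and 2 Foxc1 peaks, with 1 shared in each list, 1 member with a Foxc2 summit at its start, 0 other protein-coding genes with a Foxc2 summit, and 3 peaks in its 2 largest clusters. The median percentiles of the region's peaks by fold were then 55.0 (Foxc2) and 96.4 (Foxc1), and 0.615% of zinc finger genes elsewhere had a Foxc2 summit and 1.54% a Foxc1 summit, which is within the interval. With a minus log10 q of 5 or more those percentiles were 1.19 and 68.0, and the Foxc2 share 2.46%. With as many Foxc1 peaks as the Foxc2 list holds, the region had 2 Foxc1 peaks, at median percentile 96.9, and 1.54% of zinc finger genes elsewhere had a Foxc1 summit. Outside the dense stretches, a count chosen after seeing the data, it had 3 Foxc2 peaks, at median percentiles 51.4 (Foxc2) and 45.8 (Foxc1), and between the outer ends of the members it had 2 Foxc2 peaks. Ranked by minus log10 q, the Foxc2 percentile was 90.4. The causes of these moves were not tested. With a pseudocount of 0, also chosen after seeing the data, whole pileups matched 0.104% of Foxc2 and 0.115% of Foxc1 peaks. No paired analysis was possible because each antibody has 1 library. A peak absent from a list may lie below what its unknown depth allows.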

Other observations

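Elsewhere in the genome, a background of 3 or more times the genome-wide value stood at few places. In both lists these included the mitochondrial genome, with 2 peaks per list at folds of 2.06 to 2.29, and a place on chromosome 1 (24611619 to 24616112 in the Foxc2 list, fold 2.52, and 24611622 to 24616123 in the Foxc1 list, fold 3.87). The others were peaks of 1 list. Among the Foxc2 peaks the highest background, 164 fragments, stood on chromosome 11 (109011760 to 109011986), at a fold of 1.73, the lowest of the list. Another, of 134 fragments, stood on chromosome 16 (57391362 to 57391580, fold 2.10), and 1 lay 1.23 kb from the tRNA gene n-TEctc7 on chromosome 1 (fold 2.88).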
